A study of Rattus norvegicus with 28 samples.

Results

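The genes described here are those whose level in rat orbitofrontal cortex differed in the same direction between withdrawal day 35 and withdrawal day 2 in both drug groups, in rats that had self-administered methamphetamine (meth) and in rats that had self-administered saline. They were chosen from the measured values. CPM (a gene's read count scaled to the sum of all gene counts of its library, so that libraries of different depth can be compared) was averaged over each group, genes with a mean of at least 5 CPM over the 16 libraries were kept, and a member needed a log2 ratio of day 35 to day 2 of at least 0.2 in both drug groups or of -0.2 or below in both. Of 26405 gene identifiers, 11012 passed the level floor and 70 were members, which is 0.636% of those at the floor. In 35 of them the level was higher at day 35 (called rising members below) and in 35 it was lower (falling members).

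The study took poly(A) RNA from cortical punches of Sprague Dawley rats decapitated straight from the home cage. There were 4 groups of 4 libraries: saline at day 2, saline at day 35, meth at day 2 and meth at day 35, and each library held RNA pooled from 2 rats. Short and long are the labels' words for the time points, and the series' design text gives them as days. The ages and sexes of the rats were not used here. Rats taken at day 35 were also older and further from surgery and training than rats taken at day 2, and these differences cannot be told apart from withdrawal time. All 4 libraries of a group carried 1 sequencing index, so index and group cannot be told apart either.

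The orbitofrontal cortex takes part in weighing the value of rewards and of the cues that announce them. Drug seeking provoked by cues is known to grow over the first weeks after psychostimulant self-administration stops, which is called incubation of craving. Rats that self-administer saline serve as controls for the surgery, the training and the time spent in withdrawal, since they pass through all of these without the drug. The files list genes by Ensembl identifier only, and 0 of the identifiers could be paired with a symbol, so the members are described by level, size and pattern, and 2 identifiers are given in each direction. The labelled brain region could not be checked against cell type markers for the same reason.

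Gene counts were 20.33 to 23.54 M (M, the SI prefix mega) in day 2 saline libraries, 24.97 to 37.48 M in day 2 meth, 31.85 to 48.47 M in day 35 saline and 36.72 to 43.98 M in day 35 meth libraries. Day 35 libraries were thus deeper than day 2 libraries in saline rats, and mostly so in meth rats. The smallest count behind any rising member in any library was 16 reads and behind any falling member 13 reads. The median of the members' smallest counts was 205 reads for rising and 192 reads for falling members. When every library was thinned to 20.33 M gene counts the rule gave 38 rising and 31 falling genes, of which 31 and 23 were members.

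The 2 changes that chose the members share no library, and they are given here as a description. In meth rats 207 of the 11012 genes (1.88%) were higher by at least 0.2 on the log2 scale at day 35 and 536 (4.87%) were lower by as much. In saline rats these numbers were 156 (1.42%) and 155 (1.41%). The 35 rising members made up 16.9% of the genes higher in meth rats and 22.4% of those higher in saline rats. The 35 falling members made up 6.53% of the genes lower in meth rats and 22.6% of those lower in saline rats. A further 36 genes passed the same threshold in opposite directions, 12 of them higher in meth and lower in saline rats and 24 the reverse. At a threshold of 0.3 the count was 17 rising, 8 falling and 4 opposite genes, and at 0.5 it was 9 rising, 5 falling and 1 opposite. Across the 11012 genes, which are not independent replicates, the changes in meth and saline rats had a Pearson r of 0.24, and without the 70 members it was 0.07. Leaving out the members lowers r by construction, since they changed most in the same direction and the 36 opposite genes stayed in. Nothing is read from the difference.

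**Figure D1:**
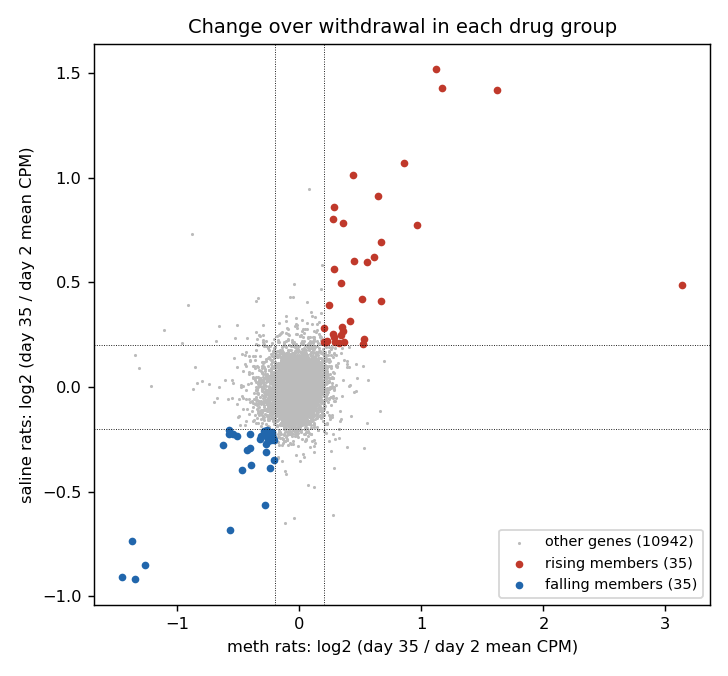
Log2 ratio of day 35 to day 2 mean CPM in meth rats (horizontal axis) and saline rats (vertical axis), 1 point per gene at 5 CPM or more. Dotted lines mark the threshold of 0.2, the 35 rising and 35 falling members are coloured, and the other 10942 genes are grey.

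The smaller of the 2 changes was under 0.25 in 33 of the 70 members, 12 of them rising and 21 falling. The rising members nearest to the threshold had changes of 0.52 in meth and 0.204 in saline rats and of 0.205 and 0.282. The genes nearest to it on the other side had 0.242 and 0.192, and 0.267 and 0.19. Among falling genes the nearest members had -0.264 and -0.204, and -0.578 and -0.206, and the nearest non-members -0.193 and -0.249, and -0.249 and -0.191. Genes on either side of the threshold thus had nearly the same smaller change. The median change of the rising members was 0.37 in meth and 0.42 in saline rats, and that of the falling members -0.29 and -0.25, beside medians of -0.003 and -0.013 over all 11012 genes.

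Members were less abundant than the genes they were drawn from. The median level was 13.8 CPM for rising and 9.43 CPM for falling members, against 33.8 CPM for all genes at the floor, and 44.3% of the members were between 5 and 10 CPM against 14.3% of all genes there. Rising members reached 266 CPM and 5 of them had 50 CPM or more. Falling members reached only 45.7 CPM. Among genes at 10 CPM or more the rule gave 23 rising, 16 falling and 15 opposite genes, and between 5 and 10 CPM it gave 12, 19 and 21. Below 10 CPM the opposite genes thus outnumbered the rising members and the falling members taken singly, but not the 31 members together. At higher levels the rising members outnumbered each of the other sets.

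Of the rising members, 9 had both changes at 0.5 or more. Their levels averaged 10.3 to 266 CPM, their changes were 0.55 to 1.62 in meth rats and 0.6 to 1.52 in saline rats, and 7 of the 9 changed more in saline rats. ENSRNOG00000000640 had the largest smaller-of-both change of all members. It stood at 14.1, 4.74, 7.6 and 3.4 CPM in day 2 saline libraries (replicates 13, 14, 15 and 16) and at 26.8, 32.4, 11.7 and 9.07 CPM in day 35 saline libraries (replicates 9, 10, 11 and 12). In meth rats it stood at 3.4, 6.16, 3.78 and 6.43 CPM at day 2 (replicates 1 to 4) and at 20.0, 24.3, 6.48 and 9.89 CPM at day 35 (replicates 5 to 8). The 2 days overlapped in saline rats, where replicate 13 of day 2 was above replicates 11 and 12 of day 35, and were just apart in meth rats. Group means were 7.47 ± 4.77 and 20.0 ± 11.4 CPM (SD, n = 4 each) in saline rats and 4.94 ± 1.57 and 15.2 ± 8.35 CPM in meth rats, a log2 change of 1.42 and 1.62.

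ENSRNOG00000008015 came next by its smaller change, with 1.43 in saline and 1.17 in meth rats. Its levels in day 2 saline libraries were 19.6, 10.4, 17.0 and 8.71 CPM and in day 35 saline libraries 54.2, 56.0, 18.6 and 21.1 CPM. In meth libraries they were 8.85, 15.7, 13.8 and 9.39 CPM at day 2 and 29.8, 38.6, 21.6 and 17.5 CPM at day 35. The 4 day 35 meth libraries lay above all day 2 meth libraries, while in saline rats replicate 11 of day 35 lay below replicate 13 of day 2. The same libraries were high for both genes: replicates 9 and 10 among day 35 saline, replicates 5 and 6 among day 35 meth and replicate 13 among day 2 saline libraries.

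**Figure D2:**
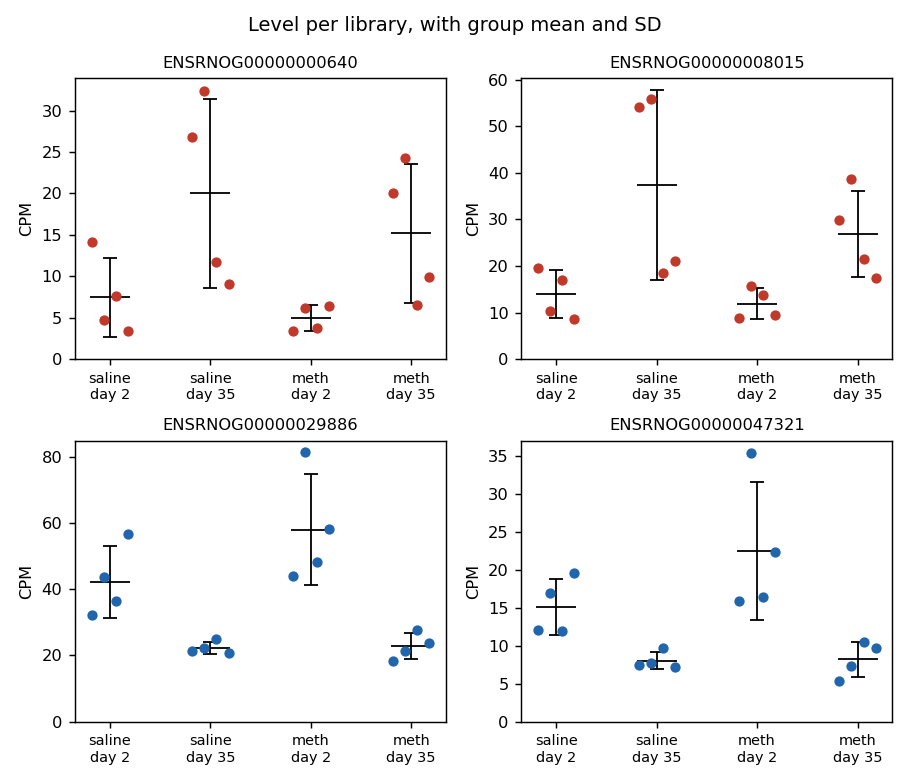
CPM in each library for 2 rising members (top, red) and 2 falling members (bottom, blue), by group; the bar is the group mean and the whiskers are 1 SD (n = 4). Within each day 35 group the rising members split into 2 higher and 2 lower libraries, and the falling members were lower at day 35 in every library.

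This order of libraries was shared by the whole set of 9. In all 9 of them replicates 9 and 10 were the 2 highest day 35 saline libraries, replicates 5 and 6 were the 2 highest day 35 meth libraries, and replicate 13 was the highest day 2 saline library. Replicate 2 was among the 2 highest day 2 meth libraries in all 9. After each group's mean was removed, the 36 pairs among the 9 genes correlated over the 16 libraries by 0.69 to 0.96 (median 0.86), a description of genes that share the same libraries and depths. Genes of widely different level thus went up and down together between pools of the same group. In no case did the 4 day 35 saline libraries lie wholly above the 4 day 2 saline libraries, and in 5 of the 9 the meth libraries did so.

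The other 26 rising members had smaller changes, with medians of 0.34 in meth and 0.28 in saline rats. Counting all 35, the day 35 libraries lay wholly above the day 2 libraries in 15 members in meth rats, beside 4.65% of all genes at the floor, and in 0 members in saline rats, beside 1.14%. No rising member had this in both drug groups (0 of 35, beside 0.0636% of all genes, or 7), and in 20 of the 35 the days overlapped in both. By group mean, 28 of the 35 were highest in day 35 saline and 7 in day 35 meth, and 28 were lowest in day 2 meth and 7 in day 2 saline. At each day, most rising members were thus higher in saline than in meth rats. The day contrasts chose the members, so nothing is read from these counts.

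Rising members shared their deviations from the group mean between replicate pools. The rule did not use these deviations directly, but it used group means of the same libraries. Genes that stand high together in a few day 35 pools can pass it for that reason. A shared course is thus partly expected among the genes it chose, and the values are a description only. In day 35 saline, replicates 9 and 10 stood above the group mean in 25 and 29 of the 35 rising members (median deviation 0.24 and 0.32 on the log2(CPM + 1) scale), and replicates 11 and 12 in 9 and 1 (-0.17 and -0.27). In day 35 meth, replicates 5 and 6 stood above it in 26 and 27 members (0.14 and 0.3) and replicates 7 and 8 in 7 each (-0.22 and -0.1). Over all 11012 genes these 8 libraries deviated by a median of -0.01 to 0.02. In day 2 saline libraries, replicates 13 and 15 stood above the mean in 24 and 26 members and replicates 14 and 16 in 10 and 5. Day 2 meth libraries differed least, with median deviations between -0.05 and 0.09. The deviation of each rising member correlated with the mean deviation of the other 34 by a median of 0.76 over the 16 libraries, and by 0.5 or more in 27 of 35 (77.1%), whereas 8.0% of the other 10977 genes reached 0.5 with the rising members' mean.

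**Figure D3:**
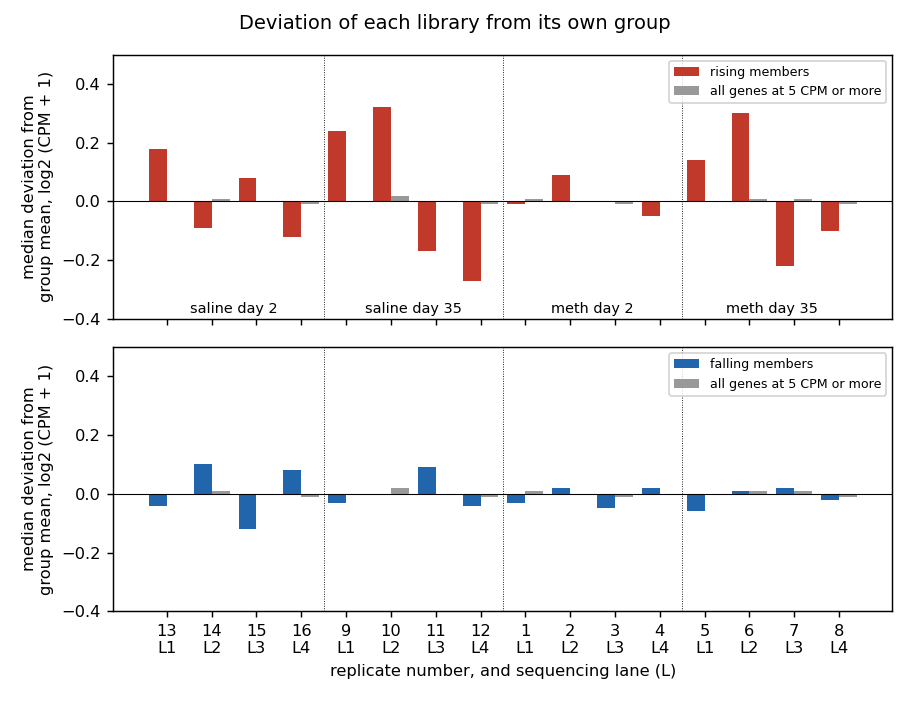
Median deviation of each library from its own group mean, on the log2(CPM + 1) scale, for the 35 rising members (top, red), the 35 falling members (bottom, blue) and all 11012 genes (grey); labels give the replicate number and the sequencing lane. Rising members stood high in replicates 5, 6, 9, 10 and 13 and low in 7, 11, 12 and 16, while all genes together stayed within 0.02 of 0.

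Sequencing lane moved with part of this pattern. Each lane held 1 library of every group, and the high day 35 libraries (5, 6, 9 and 10) were on lanes 1 and 2. Within lanes, the median log2 ratio of day 35 to day 2 over the rising members was 0.49, 0.56, 0.16 and 0.3 in meth rats and 0.47, 0.82, 0.08 and 0.33 in saline rats for lanes 1 to 4. It was positive in all 8 within-lane pairs but small in lane 3. All 8 pairs were positive in 13 of the 35 rising members and 7 of 8 in another 13. Over all 11012 genes the within-lane medians lay between -0.02 and 0.01. The rule chose the members from these same values, so nothing is read from the signs or from these counts. Applied to lanes 1 and 2 alone, the rule gave 74 rising genes, including 30 of the 35 members, and applied to lanes 3 and 4 alone it gave 75, including 10 members. ENSRNOG00000000640 had a smaller change of 0.68 in lanes 3 and 4, where the value over all lanes was 1.42. Among the day 35 saline libraries, replicate 9 had the most gene counts (48.47 M), and replicate 10 was no deeper (32.47 M) than replicate 12 (36.16 M). The part of lane in the result was not tested.

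Falling members behaved in another way. In 4 of them both changes were -0.7 or below, with -1.45 to -1.27 in meth and -0.92 to -0.74 in saline rats, and the change was larger in meth rats in all 4. ENSRNOG00000029886 stood at 32.1, 43.6, 36.3 and 56.7 CPM in day 2 saline libraries (replicates 13 to 16) and at 21.2, 22.2, 25.0 and 20.8 CPM in day 35 saline libraries (replicates 9 to 12). In meth libraries it stood at 43.9, 81.5, 48.1 and 58.2 CPM at day 2 and at 18.4, 21.4, 27.6 and 23.8 CPM at day 35. The day 2 and day 35 libraries did not overlap in either drug group. Group means were 42.2 ± 10.8 and 22.3 ± 1.9 CPM (SD, n = 4 each) in saline rats and 57.9 ± 16.8 and 22.8 ± 3.88 CPM in meth rats, so the groups met at nearly the same level at day 35.

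ENSRNOG00000047321 followed the same course at a lower level. It stood at 12.1, 16.9, 11.9 and 19.5 CPM in day 2 saline libraries and at 7.49, 7.67, 9.7 and 7.25 CPM in day 35 saline libraries. In meth libraries it stood at 15.9, 35.4, 16.4 and 22.3 CPM at day 2 and at 5.36, 7.32, 10.5 and 9.64 CPM at day 35. Every day 35 library lay below every day 2 library of the same drug group. The 4 strongest falling members ran together between pools as well, with 6 pairwise correlations of 0.89 to 0.97 after group means were removed. Replicate 2 was the highest day 2 meth library and replicate 16 the highest day 2 saline library in all 4. In bulk tissue, fewer cells of a type and less RNA per cell cannot be told apart, so neither can be read from these levels.

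The other 31 falling members changed by -0.63 to -0.21 in meth and by -0.69 to -0.2 in saline rats. Counting all 35, the day 35 libraries lay wholly below the day 2 libraries in 17 members in meth rats (7.59% of all genes at the floor) and in 10 in saline rats (3.72%), and in 8 members in both (0.599%, or 66 genes). The rule used these contrasts, so nothing is read from the counts. The fall was larger in meth rats in 24 of 35, and by group mean 23 were highest in day 2 meth and 12 in day 2 saline. Over all 11012 genes, falls of at least 0.2 were also more common in meth (4.87%) than in saline rats (1.41%). Nothing particular to the members is read from these counts. Within lanes 1 to 4 the median change was -0.39, -0.34, -0.27 and -0.43 in meth and -0.23, -0.37, -0.08 and -0.35 in saline rats, and 12 of 35 were lower in all 8 pairs. These values also went into the rule, so nothing is read from them either. A common course between pools was less marked than for the rising members: the median correlation with the mean of the other 34 was 0.23, and 10 of 35 (28.6%) reached 0.5 against 6.09% of other genes.

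**Figure D4:**
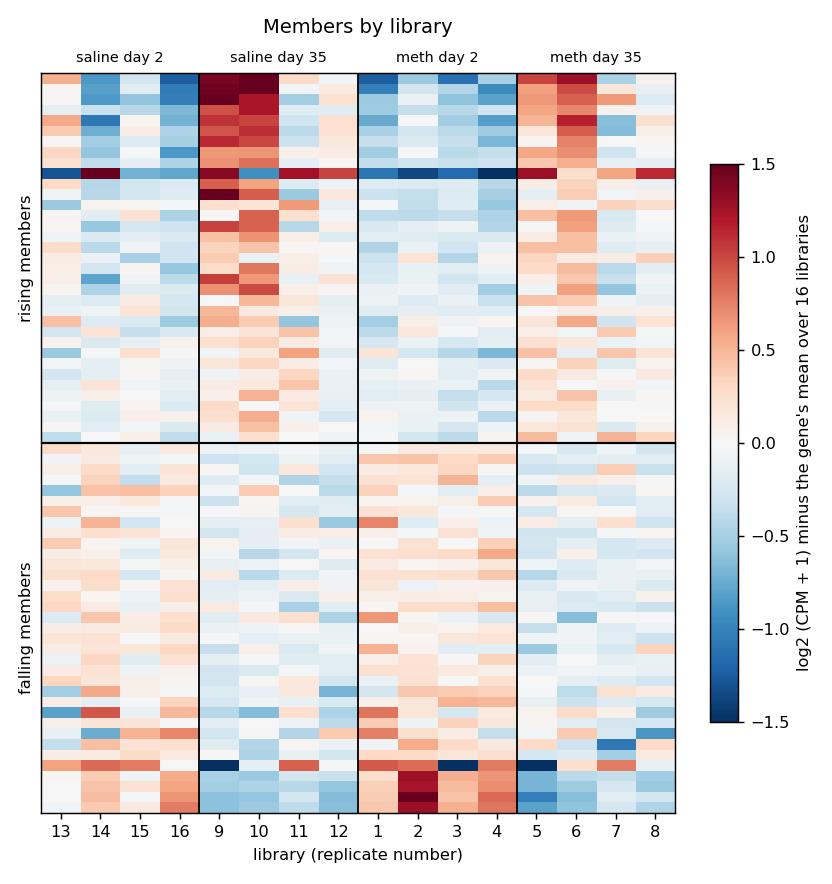
Each row is a member and each column a library, grouped by drug and day; colour is log2(CPM + 1) minus the gene's mean over 16 libraries, and rows run from the largest rise (top) to the largest fall (bottom). The upper rows are dark red in replicates 9 and 10 and red in 5 and 6, and the 4 lowest rows are dark red in day 2 meth replicate 2 and blue in all day 35 libraries.

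Replicates of the same group differed far more for members than for other genes. The median within-group SD of log2(CPM + 1) was 0.326 for rising and 0.177 for falling members and 0.072 for all genes at the floor. The gap was present at low and at higher levels: between 5 and 10 CPM the medians were 0.289, 0.191 and 0.112, and at 10 CPM or more 0.33, 0.168 and 0.067. The 36 genes of opposite change, which passed the same threshold, had a median of 0.259, between rising and falling members. A threshold on means of 4 libraries is passed more readily by genes of large spread. A larger spread among members is thus partly expected from the rule. The biological coefficient of variation estimated by edgeR had medians of 22.6% and 11.7% in rising and falling members, against 4.79% over all genes. Set against its own spread, the smaller change was at least 1 within-group SD in 25 rising and 24 falling members, and at least 2 SD in 1 rising and 11 falling members. That change chose the members, so nothing is read from these counts. The 2 scales also differ slightly, since the change is a log2 ratio of mean CPM and the SD is of log2(CPM + 1).

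**Figure D5:**
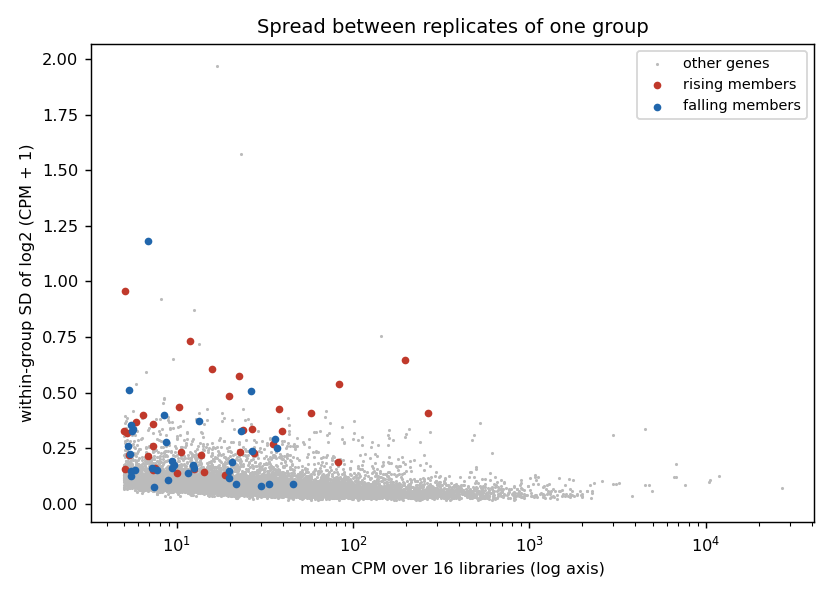
Within-group SD of log2(CPM + 1) against mean CPM (log axis), 1 point per gene at 5 CPM or more. Most of the 35 rising members (red) and many of the 35 falling members (blue) lie above the band of other genes (grey) of the same level.

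Which genes were members depended on single libraries. With each of the 16 libraries left out in turn, 13 rising and 9 falling members met the rule every time. The 13 had a smaller change of at least 0.32 and included all 9 of the strongest rising members, and the 9 included the 4 strongest falling members. The number of rising genes ranged from 28 (without day 35 meth replicate 6) to 51 (without day 35 saline replicate 12), and that of falling genes from 29 (without day 2 meth replicate 1) to 49 (without day 35 saline replicate 9 or day 2 saline replicate 15). Without day 35 saline replicate 10, 24 of the 35 rising members met the rule.

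Meth and saline rats were compared at each day and on average over both days. The rule did not use these contrasts, but it used the same group means. A high day 2 meth level raises the difference at day 2 and also deepens a fall in meth rats. The comparisons at single days are thus not separate from the choice of members. All 70 members were among the 15413 genes tested with edgeR's quasi-likelihood test, and calls were made where the p adjusted by Benjamini-Hochberg across these genes was under 0.05. Averaged over both days, 0 of the 70 members were called, beside 2 of all genes (0.013%). The smallest adjusted p among members was 0.1, and 5 members had an unadjusted p under 0.05 (7.14%, against 6.89% of all genes). DESeq2 called 1 member in that contrast, beside 31 of all genes. It was the same falling member that edgeR called at day 2, described below. Rising members were lower in meth than in saline rats in 30 of 35 (median log2 difference -0.12, range -1.4 to 0.16), while all genes tested had a median of 0.0. Because these members move together between pools, the 30 are not 30 separate observations.

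At day 2, 7 of the 70 members had an unadjusted edgeR p under 0.05 (10.0%, against 10.5% of all genes tested). After adjustment, 1 of the 70 members was called, beside 0.11% of all genes tested (17). It was a falling member, chosen for mention because it passed, whose levels in day 2 meth libraries were 39.7, 40.2, 36.5 and 38.9 CPM against 28.5, 32.7, 28.3 and 28.9 CPM in day 2 saline libraries. The groups did not overlap, the log2 difference was 0.4, and the edgeR adjusted p was 0.0031, with 0.0013 to 0.03 under the other fits that gave it an adjusted p. At day 35 its levels were 25.1 to 26.7 CPM in meth and 23.7 to 28.1 CPM in saline libraries, which overlapped. This member was just inside the threshold of the rule, with a change of -0.206 in saline and -0.578 in meth rats. Its high day 2 meth level, which the test compared, also went into the change of -0.578. The adjusted p is thus not separate from the choice of this member. Of the other falling members, the 4 strongest were higher in meth rats at day 2 by 0.42 to 0.59 on the log2 scale, but none passed (smallest edgeR adjusted p = 0.36).

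At day 35, 0 of the 70 members were called with edgeR, beside 0 of all genes (0.0%). The smallest adjusted p among members was 0.84, 2 members had an unadjusted p under 0.05 (2.86%, against 5.85% of all genes), and DESeq2 and limma-voom called 0 members. The median difference between meth and saline rats was -0.11 for rising and -0.0 for falling members. The 9 strongest rising members differed by -0.48 to -0.11, lower in meth rats in each case, with a smallest edgeR adjusted p of 0.93. Their within-group SD on the log2(CPM + 1) scale had a median of 0.54.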

How the data were processed

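Poly(A) RNA-seq of 16 orbitofrontal libraries was used, and 12 samples of central amygdala were not analysed here. The authors deposited raw counts per Ensembl gene in 1 file per library. The submitters' processing notes name TopHat, HTSeq, limma and the build rn4; their versions, the annotation and the strand setting were not given in the sources used here. In each file 5 summary rows (31.13 to 32.61% of reads) were left out. Reads with several alignments were among them, so near-identical gene copies are understated. Counts were divided by the library's gene total (CPM), and the rule was applied to group means.

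Tests used edgeR 4.0.16 (filterByExpr, TMM with factors 0.985 to 1.018, robust quasi-likelihood fit of 4 group means, R 4.3.3); alternatives used DESeq2 1.42.0 and limma 3.58.1. Spread was computed on log2(CPM + 1) with a pseudocount of 1. The fit was tested on simulated data: for meth against saline at day 2 among 15334 genes, 35 of 100 with a 1.2-fold change and 71 of 100 with a 1.5-fold change were recovered, with 6 false calls. The changed genes were drawn at random from all genes tested. The median biological coefficient of variation was 22.6% in rising and 11.7% in falling members, against 4.79% over genes at the floor. Recovery for genes as variable as the members was therefore not measured.

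The 24 within-group pairs of libraries were checked for duplicates: 0 were identical, and chi-square per degree of freedom was 5.19 to 17.01. Replicates are separate pools of rats per the labels. The labels pair libraries across groups by sequencing lane. The mean correlation of their deviations from group means was 0.043 for the 24 pairs on 1 lane and -0.015 for the 72 pairs on different lanes. For 5 of 16 libraries the best partner was on the same lane. With 24 pairs on 1 lane beside 72 others, some such partners arise at random, so nothing is read from this count. The members and lists were chosen with earlier results of these data known. Lists and markers written by symbol could not be run, since the gene table at hand holds 0 Ensembl identifiers. The naming rule then gave, in each direction, the first 2 members ranked by the smaller of the 2 changes, those with no overlap between days in both drug groups first. No rising member had none, so both were ranked without that condition.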

Additional observations from a re-analysis of the deposited data

Results flagged for a closer look

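A library far from the other 3 of its group was looked for in 28 sets of 4 values (gene counts, the mean level of the rising and of the falling members, and each of the 4 identified genes), where chance alone gives about 1 in 20. It was found in 2 sets, both of gene counts: day 2 saline replicate 13 had 20.3 M and day 2 meth replicate 1 had 25.0 M, each the shallowest of its group. Replicate 13 was also the highest day 2 saline library in 20 of the 35 rising members, and without it the rule gave 39 rising genes, 27 of them members. Over all genes at the floor it stood above its group mean in 48.8%. Day 2 meth replicate 1 was the highest of its group in 7 rising members and the lowest in 10. A link between depth and these levels was not tested. No set of levels of the 4 identified genes or of the members' means held such a library. Over the single members, such a library was found in 18 of 280 sets. These sets are not independent, since members share the same libraries.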

How the results depend on the processing

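The number of members followed the settings of the rule. With a floor of 1 CPM it gave 88 rising and 164 falling genes, with 10 CPM 23 and 16, with a threshold of 0.15 it gave 78 and 85, and with 0.3 17 and 8. Group medians gave 39 and 53, of which 25 and 27 were members. Means of log2(CPM + 1) gave 24 and 25, of which 24 and 24 were members. TMM and median-ratio scaling left both counts within 1.5 times. Settings by lane were added after seeing the data. Without lane 1 the rule gave 43 rising and 48 falling genes, of which 23 and 18 were members. Without lane 2 it gave 41 and 35, of which 18 and 19 were members. Without lane 3 it gave 50 and 61 (29 and 29 members), and without lane 4, 42 and 36 (31 and 20 members). Lanes 1 and 2 alone gave 74 and 97, and lanes 3 and 4 alone gave 75 and 66. In both of these last settings 8 rising and 10 falling members met the rule. Leaving out 1 library gave 28 to 51 rising and 29 to 49 falling genes. The 4 identified genes kept their direction under every scaling, thinning, lane and leave-one-out setting. With lane as a replicate block the comparison of meth with saline called 0 members on average over days, 1 at day 2 and 0 at day 35, as without it. On average over days DESeq2 called 31 genes and 1 member, thinned counts 1 gene, and leaving out 1 library 1 to 4 genes and 0 to 1 members, the 1 member being called without day 35 saline replicate 11 or day 2 saline replicate 14. At day 2 DESeq2 called 110 genes and 0 members (the member called by edgeR had no adjusted p there), and leaving out 1 library gave 6 to 21 genes and 1 member each time. At day 35 DESeq2 called 1 gene, and leaving out 1 library gave 0 to 1. The cause of these shifts was not tested. With 1 library left out, the rising members' median correlation with one another's mean was 0.71 to 0.8 and their median SD 0.28 to 0.34, and for falling members these were 0.14 to 0.26 and 0.17 to 0.18. At a depth of 20.33 M in every library, 31 rising and 23 falling members met the rule.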

Other observations

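Members with single-library patterns were looked at after their values were seen. A falling member stood at 0.713 CPM in replicate 3 of day 2 meth, 0.307 CPM in replicate 5 of day 35 meth and 0.392 CPM in replicate 9 of day 35 saline, and at 4.83 to 11.1 CPM in the other 13 libraries. Of these 3 pools, 2 were from day 35. A rising member with the largest meth change of all (3.14) stood at 0.454 to 1.7 CPM in 7 of the 8 day 2 libraries but at 16.7 CPM in day 2 saline replicate 14, the highest of its 16 values. At day 35 it stood at 4.28 to 10.4 CPM in 7 libraries and at 1.32 CPM in saline replicate 10.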
